A study of Mus musculus with 8 samples.

Results

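The proteasome genes described here were 36 of the 19857 mouse genes in the count table. They comprised the 7 alpha subunits (Psma1 to Psma7) and the 7 constitutive beta subunits (Psmb1 to Psmb7) of the 20S core, the 6 ATPases of the 19S cap (Psmc1 to Psmc6), 12 other 19S subunits (11 Psmd genes and Adrm1) and 4 activators (Psme1 to Psme4). The rule lists them by name and uses no measured value, although the list was drawn up with earlier results of these data known, and all 36 were found by symbol.

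The proteasome degrades proteins that carry ubiquitin chains. Its 20S core is a barrel of stacked rings: the alpha subunits form the outer rings and the gate, and the beta subunits form the inner rings, where the catalytic sites face the chamber. The 19S cap binds ubiquitinated proteins, removes the ubiquitin, and unfolds and threads the protein into the core with its ATPases, while the Psme activators open the core without ATP. In skeletal muscle the ubiquitin-proteasome system is known for the breakdown of myofibrillar proteins during atrophy.

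Tongue RNA of 4 wild-type (WT) and 4 A17/+ mice was compared, all females aged 12 months, from sections cut in its median region. The A17/+ genotype serves as a mouse model for oculopharyngeal muscular dystrophy, a muscle disease in which the alanine tract of the poly(A)-binding protein PABPN1 is expanded. How the A17 allele is expressed, and from which promoter, is not given in the sources used here. Each library was made from 1 mouse by mcSCRB-seq, which counts RNA 3' ends by unique molecular identifiers, and the comparison asks which of these genes differ in RNA level between the genotypes at this age.

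The libraries held 205696 to 465014 counts in WT and 395061 to 485326 in A17/+ (two-sided exact permutation p = 0.114), so 1 count was worth 2.23 to 5.42 CPM (counts per 1000000 counts of the tested genes) depending on the library. Genes with a count numbered 12784 ± 1163 in WT and 14314 ± 94.5 in A17/+ (SD, n = 4 each; exact permutation p = 0.0286, the smallest this design can give). Principal component 1 (50.2% of the variance) separated the genotypes, and WT 1 at -7.21 and A17/+ 1 at 4.27 were the nearest to each other. Transcripts under 1000 nt took 4.81% to 6.95% of counts in WT and 6.72% to 9.71% in A17/+ (exact permutation p = 0.0571). Skeletal muscle markers were all present, with a summed level of 86282 to 116250 CPM in WT and 112166 to 133733 CPM in A17/+. Of the 12, 7 were called higher, beside 6.34% of all genes tested, and Ttn, Neb, Myh1, Myh2 and Myh4 were not. Pvalb, 1 of the 7, passed the filter on low counts only through A17/+ (0 to 4 counts per library in WT, 15 to 57 in A17/+). This share therefore cannot be set against the background as support. Markers of salivary gland summed to 2064 CPM in WT 1 and to at most 59.9 CPM in every other library. The 3' counts of Pabpn1 (4 to 15 in WT, 5 to 11 in A17/+) lie outside the alanine tract and do not check the genotype.

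Of the 36 members, 27 passed the filter on low counts and were tested with edgeR's quasi-likelihood test against a threshold of 0.05 after Benjamini-Hochberg adjustment. The filter asked for at least 24.6 counts per 1000000 counts of the whole library, without TMM, in at least 4 libraries. Psmb1, Psmb4 and Psmc6 were higher in A17/+ and no member was lower. An unadjusted p under 0.05 was reached by 10 of the 27, all of them higher in A17/+, beside 1273 of all 5066 genes tested in either direction. DESeq2 called 2 of these genes, Psmb1 and Psmb4, higher and 0 lower. Over all 5066 genes tested, 321 (6.34%) were higher and 132 (2.61%) were lower. Without TMM, scaled by library totals alone, the split was 279 higher and 289 lower, and the median of all genes moved by -0.12 on the log2 scale. Among the tested members, Psmb1, Psmb4, Psmb7 and Psmc2 reached the filter in only 1 WT library. The shares of tested members called higher, or with an unadjusted p under 0.05, therefore cannot be set against the background as support. In the fit without a count filter, where no member is left out, 3 of 36 were called higher (Psmb1, Psmb3 and Psmb4), beside 3.1% of all 19857 genes, and none was called lower, beside 1.2%. Only 5066 of those 19857 genes passed the filter, against 27 of the 36 members, so these shares are not alike in depth. The share called higher also differed by transcript length, as given below. In the fit without a count filter the median log2 fold change of the 36 members was 0.55, and 28 of them were positive, beside a median of 0.15 and 55.8% positive over all genes. The 4 A17/+ values all lay above the 4 WT values for 7 of the 36 members (Psma1, Psma3, Psmb1, Psmb3, Psmb6, Psmc4 and Psmc6), beside 5.21% of all genes, and all lay below them for 1 member (Psmd4), beside 2.0%. Like the median and the share positive, these shares over all genes are not alike in depth to those of the members.

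The groups of subunits differed in how far their RNA stood apart between genotypes. The summed level of the 7 beta subunits was 138, 97.0, 81.2 and 70.4 CPM in WT 1 to 4 and 140, 426, 288 and 328 CPM in A17/+ 1 to 4. The means were 96.7 ± 29.7 and 296 ± 119 CPM (SD, n = 4 each), a ratio of 3.06. A17/+ 1 was level with WT 1 while the other 3 A17/+ libraries stood well above every WT library. The alpha subunits summed to 306 ± 40.3 CPM in WT and 458 ± 51.7 CPM in A17/+, with every A17/+ library (408 to 516) above every WT library (271 to 363). The ATPases summed to 259 ± 58.4 and 356 ± 41.4 CPM, with overlapping libraries. The 12 other 19S subunits summed to nearly the same level in both genotypes, 1459 ± 126 CPM in WT and 1422 ± 88.9 CPM in A17/+, although 8 of the 12 had a higher A17/+ mean. Without Psmd2, Psmd4 and Psmd7, which carry most of that sum, the other 9 summed to 507 ± 60.9 and 589 ± 26.8 CPM, a ratio of 1.16. The activators summed to 485 ± 62.0 and 582 ± 77.1 CPM, again with overlap. Divided by the sum of the other 19S subunits, the beta sum was 5% to 9.28% in WT, 9.21% in A17/+ 1 and 21.9% to 29.3% in A17/+ 2 to 4. These sums are descriptions of a chosen list and carry no p.

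**Figure D1:**
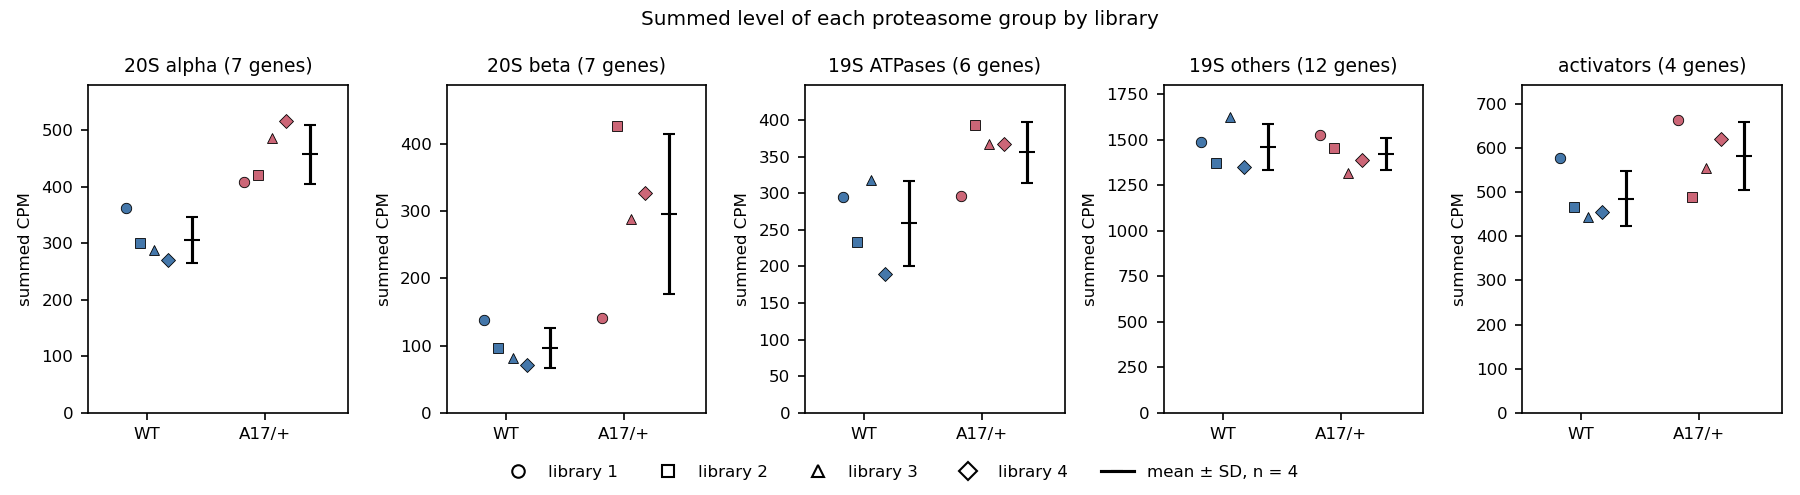
Summed level of each proteasome group (y axis, CPM with TMM scaling, from 0) in the 4 WT and 4 A17/+ libraries; symbols mark the library number and bars the mean ± SD. The beta sum lies between 70.4 and 138 CPM in WT and between 140 and 426 CPM in A17/+, while the sum of the other 19S subunits overlaps.

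In the fit without a count filter the median log2 fold change was 0.55 for the alpha subunits, 1.45 for the beta subunits, 0.88 for the ATPases, 0.02 for the other 19S subunits and 0.25 for the activators. All 7 alpha, all 7 beta and all 4 activator genes had positive values, as did 4 of 6 ATPases and 6 of 12 other 19S subunits. Across the scalings, tests and left-out libraries tried, the median of the beta subunits ranged from 1.17 to 2.22 and that of the other 19S subunits from -0.19 to 0.10.

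Markers of other cells moved with the genotype as well, and their part in these results was not tested. Together, 15 macrophage and leukocyte markers reached 237 to 504 CPM in the WT libraries and 502 to 791 CPM in A17/+, with a higher A17/+ mean for 14 of 15. WT 1 (504) and A17/+ 1 (502) were level in this sum. Lyz2 alone held 132 of the 226 marker counts in WT 1, so the sum of that library rested largely on 1 marker. A likeness to the beta subunits cannot be read from it. Several of the 15 markers were at or near 0 in WT (C1qa at 0 to 1 count per library) and low in A17/+ (2 to 9 counts). The 6 fibroblast markers summed to 474 to 672 CPM in WT and 649 to 1231 CPM in A17/+, and the 5 red blood cell markers to 20.1 to 32.3 and 100 to 1333 CPM, again with A17/+ 1 the lowest of its group. The 14 tongue epithelium markers summed to 15984 to 18371 CPM in WT and 11296 to 21080 CPM in A17/+. Of these, 3 were called lower (Krt76, Dsp and Perp) and 1 higher (Sprr3), beside 2.61% and 6.34% of all genes tested. Sprr3 was low in WT, at 2 to 13 counts per library against 14 to 68 in A17/+, so its passing the filter rested mostly on A17/+. The 6 endothelium markers overlapped, at 378 to 417 and 392 to 469 CPM. These sums were not adjusted for transcript length, which went with log2 fold change over all genes, as given below. In RNA from whole tissue, fewer cells of a type and less RNA per cell cannot be told apart.

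The outer-ring alpha subunits were read at moderate depth, and none of the 6 tested passed the threshold with edgeR or DESeq2. An unadjusted p under 0.05 was reached by 3 of the 6, beside 1273 of all 5066 genes tested. Psma1 measured 64.6, 25.9, 30.5 and 37.9 CPM in WT 1 to 4 and 73.6, 70.6, 76.3 and 94.1 CPM in A17/+ 1 to 4. The groups did not overlap, and WT 1 stood nearest to the A17/+ libraries. Its log2 fold change was 0.92 ± 0.30 (SE; edgeR adjusted p = 0.0615), and without WT 1 it was 1.31 with an adjusted p of 0.011. Psma3 measured 49.0, 42.0, 40.6 and 37.9 CPM in WT and 51.3, 70.6, 73.5 and 105 CPM in A17/+. Again the groups did not overlap, and A17/+ 1 lay just above WT 1; the log2 fold change was 0.78 ± 0.28 (SE; edgeR adjusted p = 0.0856). Psma6 measured 84.7, 54.9, 44.0 and 43.3 CPM in WT and 120, 59.3, 113 and 94.1 CPM in A17/+, and WT 1 lay above A17/+ 2. Psma7 measured 26.7, 25.9, 37.2 and 27.1 CPM in WT and 29.0, 73.4, 45.2 and 34.2 CPM in A17/+, with A17/+ 2 the highest and A17/+ 1 and A17/+ 4 inside the WT range. The log2 fold changes of this pair were 0.71 and 0.62 (edgeR adjusted p = 0.129 and 0.292). Psma3 passed the threshold without A17/+ 1 (0.89, adjusted p = 0.040), and Psma6 without WT 1 (0.99, adjusted p = 0.043) or without A17/+ 2 (0.88, adjusted p = 0.047). Psma2 and Psma4 overlapped between genotypes at 48.8 to 77.8 CPM in WT and 50.8 to 91.2 CPM in A17/+, and Psma5, below the filter, had 2 to 9 counts per library in WT and 5 to 14 in A17/+.

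The beta subunits gave 2 of the 3 genes called higher. Psmb1, a structural inner-ring subunit without a catalytic site (chr17:15475021-15499751, minus strand, mm10), measured 26.7, 16.2, 10.2 and 5.42 CPM in WT and 29.0, 104, 45.2 and 57.0 CPM in A17/+. Every A17/+ library exceeded every WT library, although A17/+ 1 was close to WT 1, and the spread in A17/+ was wide (14.6 ± 9.20 against 58.9 ± 32.5 CPM; SD, n = 4). The fold was 3.46 (log2 fold change 1.79 ± 0.47 SE, 95% interval 0.82 to 2.80, edgeR adjusted p = 0.0219). Psmb4, another structural inner-ring subunit (chr3:94884093-94886961, minus strand), measured 33.4, 16.2, 6.77 and 5.42 CPM in WT and 29.0, 70.6, 48.0 and 62.7 CPM in A17/+. WT 1 lay above A17/+ 1, so the groups overlapped by that pair, and the other 3 A17/+ libraries were above all WT libraries. Its fold was 2.86 (log2 fold change 1.52 ± 0.45 SE, 95% interval 0.58 to 2.48, edgeR adjusted p = 0.0424). The adjusted p of Psmb1 was 0.054 to 0.085 without WT 2, WT 3, WT 4, A17/+ 2 or A17/+ 4, and its call was kept without WT 1 (0.010), A17/+ 1 (0.0026) or A17/+ 3 (0.042). That of Psmb4 was 0.074 to 0.137 without WT 2, WT 3, WT 4, A17/+ 2, A17/+ 3 or A17/+ 4, and its call was kept without WT 1 (0.0072) or A17/+ 1 (0.010).

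Psmb3, a structural subunit of the inner ring (chr11:97703399-97713500, plus strand), was below the filter and was singled out after its values were seen. Its WT libraries held 2, 2, 2 and 1 counts and its A17/+ libraries 7, 17, 25 and 21, or 4.46, 6.46, 6.77 and 5.42 CPM against 15.6, 48.0, 70.6 and 59.9 CPM. The lowest A17/+ library was above the highest WT library, and the 4 WT libraries were all near the level of a few counts. In the fit without a count filter its log2 fold change was 2.92 ± 0.53 (SE, 95% interval 1.95 to 4.05, edgeR adjusted p = 2.33e-06), and it ranged from 2.02 to 3.17 and stayed past the threshold in all 19 alternatives run for it. Psmb2, a structural subunit also below the filter, had 2, 0, 5 and 0 counts in WT and 3, 12, 8 and 7 in A17/+, which overlap (log2 fold change 1.71 ± 0.66 SE, edgeR adjusted p = 0.123). Without WT 3 its log2 fold change was 2.97 (adjusted p = 0.025), and without A17/+ 1 it was 1.95 (adjusted p = 0.042). Pseudogenes share up to 52.3% of the 3'-end sequence of Psmb3, in runs of 31 bases, but had no counts in any library.

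The 3 catalytic beta subunits did not pass the threshold. Psmb6, which carries the caspase-like site (chr11:70525367-70527858, plus strand), measured 26.7, 32.3, 20.3 and 37.9 CPM in WT and 44.6, 73.4, 53.7 and 54.2 CPM in A17/+. The groups did not overlap, and the fold was 1.96 (log2 fold change 0.97 ± 0.31 SE, edgeR adjusted p = 0.0562). Without A17/+ 1 its log2 fold change was 1.03 with an adjusted p of 0.041. Psmb7, which carries the trypsin-like site, measured 35.7, 9.70, 10.2 and 10.8 CPM in WT and 15.6, 59.3, 42.4 and 59.9 CPM in A17/+. WT 1 stood apart from 3 low WT libraries and A17/+ 1 from 3 high A17/+ libraries. The log2 fold change of Psmb7 was 1.19 ± 0.50 (SE, edgeR adjusted p = 0.138) with all libraries, 2.01 without WT 1 (adjusted p = 0.022) and 1.45 without A17/+ 1 (adjusted p = 0.025). The annotated exons of Psmb7 overlap those of Nek6 on the opposite strand by 405 nt, and the strand setting of the counting is not given in the sources used here. Psmb5, which carries the chymotrypsin-like site and lay below the filter, had 3, 5, 3 and 1 counts in WT and 0, 13, 2 and 5 counts in A17/+, so that the highest and the lowest library were both A17/+, and a copy, Gm3375, shares 60.9% of its 3'-end sequence. These 3 genes summed to 55.5 ± 11.8 CPM in WT libraries and 115 ± 45.9 CPM in A17/+ libraries, and the 4 structural beta subunits to 41.2 ± 21.7 and 181 ± 73.7 CPM.

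**Figure D2:**
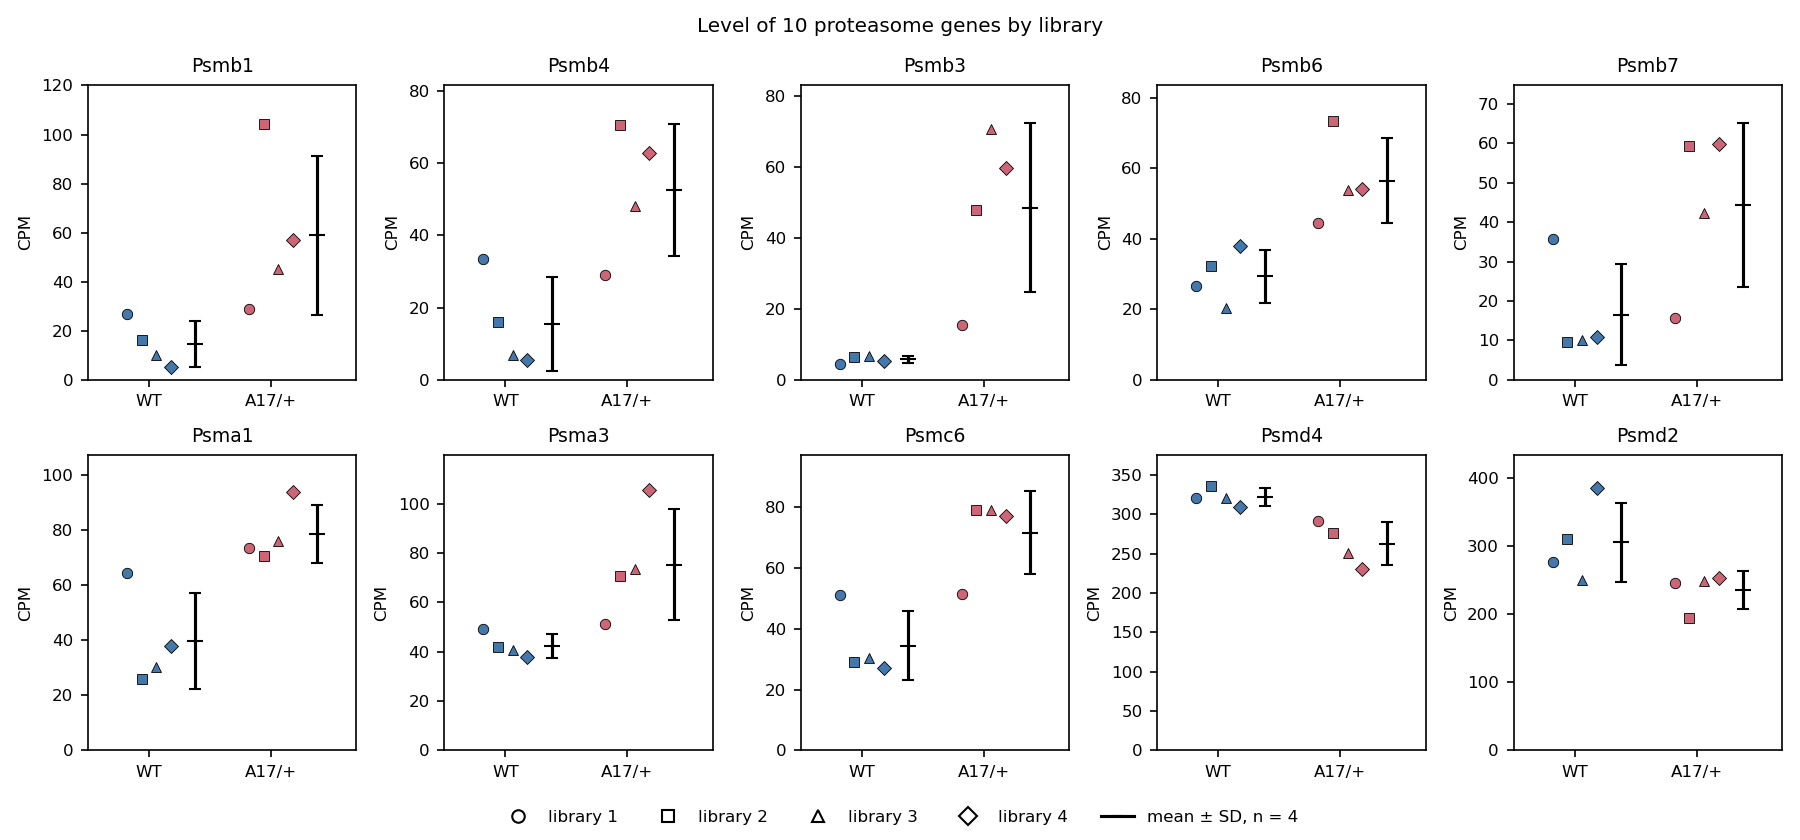
Level (y axis, CPM, from 0) of 10 proteasome genes in each WT and A17/+ library; symbols mark the library number and bars the mean ± SD. Psmb3 lies at 4.46 to 6.77 CPM in WT and at 15.6 to 70.6 CPM in A17/+, and for Psmb1, Psmb4, Psmb7 and Psmc6 WT 1 and A17/+ 1 are the libraries nearest to the other genotype.

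Proteasome genes are known to be induced together through the antioxidant response element, to which Nfe2l1 binds, and many have CCAAT boxes, so promoter sequences are shown for 4 members whose values are given in full: Psmb4 and Psmc6, called higher, Psmb3, the largest difference, and Psmb6, a catalytic subunit. They are the 250 bases before the RefSeq start of each gene on GRCm38.p6, 5' to 3' on the gene's strand, with capitals marking a TGACNNNGC core of the antioxidant response element or a CCAAT box on either strand.
Psmb4, chr3:94886959-94887208, minus strand: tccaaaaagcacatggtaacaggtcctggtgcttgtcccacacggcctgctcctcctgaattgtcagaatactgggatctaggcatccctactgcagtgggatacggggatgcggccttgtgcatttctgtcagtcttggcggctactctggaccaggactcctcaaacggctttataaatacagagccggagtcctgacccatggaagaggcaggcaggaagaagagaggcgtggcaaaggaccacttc
Psmb3, chr11:97703184-97703433, plus strand: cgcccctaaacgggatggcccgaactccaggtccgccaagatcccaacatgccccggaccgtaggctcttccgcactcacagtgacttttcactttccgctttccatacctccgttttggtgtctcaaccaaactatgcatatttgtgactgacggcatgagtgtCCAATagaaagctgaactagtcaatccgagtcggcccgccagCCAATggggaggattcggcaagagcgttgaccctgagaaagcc
Psmb6, chr11:70525107-70525356, plus strand: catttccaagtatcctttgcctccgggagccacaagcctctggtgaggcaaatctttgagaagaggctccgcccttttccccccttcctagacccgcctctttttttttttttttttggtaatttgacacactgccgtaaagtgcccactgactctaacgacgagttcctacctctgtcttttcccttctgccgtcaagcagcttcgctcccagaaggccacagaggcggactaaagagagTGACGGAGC
Psmc6, chr14:45329574-45329823, plus strand: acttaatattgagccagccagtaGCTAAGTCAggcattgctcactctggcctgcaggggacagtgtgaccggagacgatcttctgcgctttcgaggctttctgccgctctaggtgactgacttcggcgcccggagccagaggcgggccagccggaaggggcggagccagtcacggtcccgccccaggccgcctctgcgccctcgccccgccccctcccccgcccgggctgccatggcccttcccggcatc
The window of Psmb6 ended in TGACGGAGC, which began 9 bases before the start. That of Psmc6 held the same core on the opposite strand, beginning 227 bases before the start, and that of Psmb3 held CCAAT at 85 and 43 bases before it. The window of Psmb4 held neither motif. Of the 36 members, 30 matched the RefSeq promoter table by symbol, with 33 windows of 250 bases before and 50 after a start, and those not matched were Psmb1, Psmb2, Psmb7, Psmc3, Psmd3 and Psmd7. TGACNNNGC was found on either strand in 6 of these 33 windows (18.2%), beside 12.4% of all 32851 windows, and CCAAT in 12 of 33 (36.4%), beside 37.4% of all windows. The 6 genes with TGACNNNGC were Psmb5, Psmb6, Psmc6, Psmd12, Psme4 and Adrm1. Of these only Psmc6 was called higher, while Psmb6, Psmd12 and Psme4 did not pass the threshold and Psmb5 and Adrm1 lay below the filter. These matches are descriptions of letters in the window, not of bound sites.

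The ATPases form the ring of the 19S cap that unfolds substrates. Psmc6 (chr14:45329788-45349705, plus strand) measured 51.3, 29.1, 30.5 and 27.1 CPM in WT and 51.3, 79.1, 79.1 and 77.0 CPM in A17/+. WT 1 and A17/+ 1 were equal to 3 digits, and the other 3 libraries of each genotype lay close together and far apart from the other genotype. Its fold was 1.95 (log2 fold change 0.97 ± 0.29 SE, 95% interval 0.36 to 1.59, edgeR adjusted p = 0.0471). This call was lost in 14 of 22 alternatives, DESeq2 among them (adjusted p = 0.0938), and without WT 2, WT 3, WT 4, A17/+ 2, A17/+ 3 or A17/+ 4 the adjusted p was 0.074 to 0.137. Psmc1 measured 33.4, 22.6, 50.8 and 21.7 CPM in WT and 35.7, 45.2, 81.9 and 88.4 CPM in A17/+, with WT 3 inside the A17/+ range (log2 fold change 0.91 ± 0.37 SE, edgeR adjusted p = 0.128). Psmc2 measured 35.7, 9.70, 20.3 and 5.42 CPM in WT and 22.3, 70.6, 33.9 and 37.1 CPM in A17/+, with WT 1 above A17/+ 1 and A17/+ 3 (log2 fold change 0.98 ± 0.47 SE, edgeR adjusted p = 0.203). Psmc1 passed the threshold without A17/+ 1 (1.07, adjusted p = 0.048) and Psmc2 without WT 1 (1.61, adjusted p = 0.047). Psmc5 was the ATPase with a lower A17/+ mean, at 40.1, 32.3, 47.4 and 32.5 CPM in WT and 13.4, 22.6, 36.7 and 39.9 CPM in A17/+. Its libraries overlapped (log2 fold change -0.48 ± 0.36 SE, edgeR adjusted p = 0.435). Psmc3 lay at 86.7 to 156 CPM in WT and 99.8 to 156 CPM in A17/+. Psmc4, below the filter, had 3, 1, 4 and 3 counts in WT and 8, 12, 8 and 9 counts in A17/+, which do not overlap in CPM, and its log2 fold change without a count filter was 1.36 ± 0.56 (SE, edgeR adjusted p = 0.18).

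Among the 12 other 19S subunits none of the 10 tested passed the threshold with edgeR or DESeq2, and 1 had an unadjusted p under 0.05. Psmd4, the ubiquitin receptor of the cap (chr3:95032694-95042614, minus strand), measured 321, 336, 321 and 309 CPM in WT and 292, 277, 251 and 231 CPM in A17/+. All 4 A17/+ libraries lay below all 4 WT libraries, and the spread within each genotype was small (322 ± 11.2 and 263 ± 27.1 CPM; SD, n = 4). The log2 fold change was -0.29 ± 0.16 (SE, edgeR adjusted p = 0.276), and with the trend on transcript length removed from each library it was -0.80 with an adjusted p of 0.0124. Psmd2, the large scaffold subunit that docks ubiquitin shuttle proteins, measured 276, 310, 250 and 385 CPM in WT and 245, 195, 249 and 254 CPM in A17/+. WT 3 lay within the A17/+ range (log2 fold change -0.36 ± 0.18 SE, edgeR adjusted p = 0.234). Psmd13 and Psmd8 are subunits of the lid. Psmd13 measured 57.9, 42.0, 71.1 and 37.9 CPM in WT and 80.3, 84.7, 65.0 and 99.8 CPM in A17/+, with WT 3 above A17/+ 3 (log2 fold change 0.62 ± 0.26 SE, edgeR adjusted p = 0.148). Its exons overlap those of Sirt3 on the opposite strand by 342 nt. Psmd8 measured 29.0, 51.7, 50.8 and 37.9 CPM in WT and 29.0, 87.6, 84.8 and 71.3 CPM in A17/+, where A17/+ 1 was as low as the lowest WT library (log2 fold change 0.68 ± 0.35 SE, edgeR adjusted p = 0.237). Without A17/+ 1 the value of Psmd8 was 0.91 with an adjusted p of 0.042. The other tested subunits, Psmd1, Psmd3, Psmd7, Psmd11, Psmd12 and the deubiquitinase Psmd14, overlapped between genotypes. Psmd6 had 2 to 11 counts per library in WT and 9 to 20 in A17/+, and the ubiquitin receptor Adrm1 had 1 to 14 and 5 to 9, both below the filter.

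Of the activators, 2 of 4 were tested and neither passed the threshold with edgeR or DESeq2, nor reached an unadjusted p under 0.05. Psme4, which encodes the large nuclear activator PA200, measured 397, 349, 294 and 374 CPM in WT and 484, 305, 410 and 482 CPM in A17/+. A17/+ 2 lay inside the WT range and the other 3 above it (log2 fold change 0.25 ± 0.18 SE, 95% interval -0.13 to 0.63, edgeR adjusted p = 0.416). Psme1, a subunit of the interferon-inducible activator PA28, measured 160, 100, 135 and 54.2 CPM in WT and 163, 150, 119 and 103 CPM in A17/+, with the groups almost fully overlapping (log2 fold change 0.20 ± 0.28 SE, edgeR adjusted p = 0.706). Its partner Psme2 had 1 to 3 counts in WT and 3 to 6 in A17/+, and its 3' end shares 68.7% of its sequence with Psme2b. Psme3, the nuclear activator subunit, had 2 to 8 counts in WT and 5 to 9 in A17/+.

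**Figure D3:**
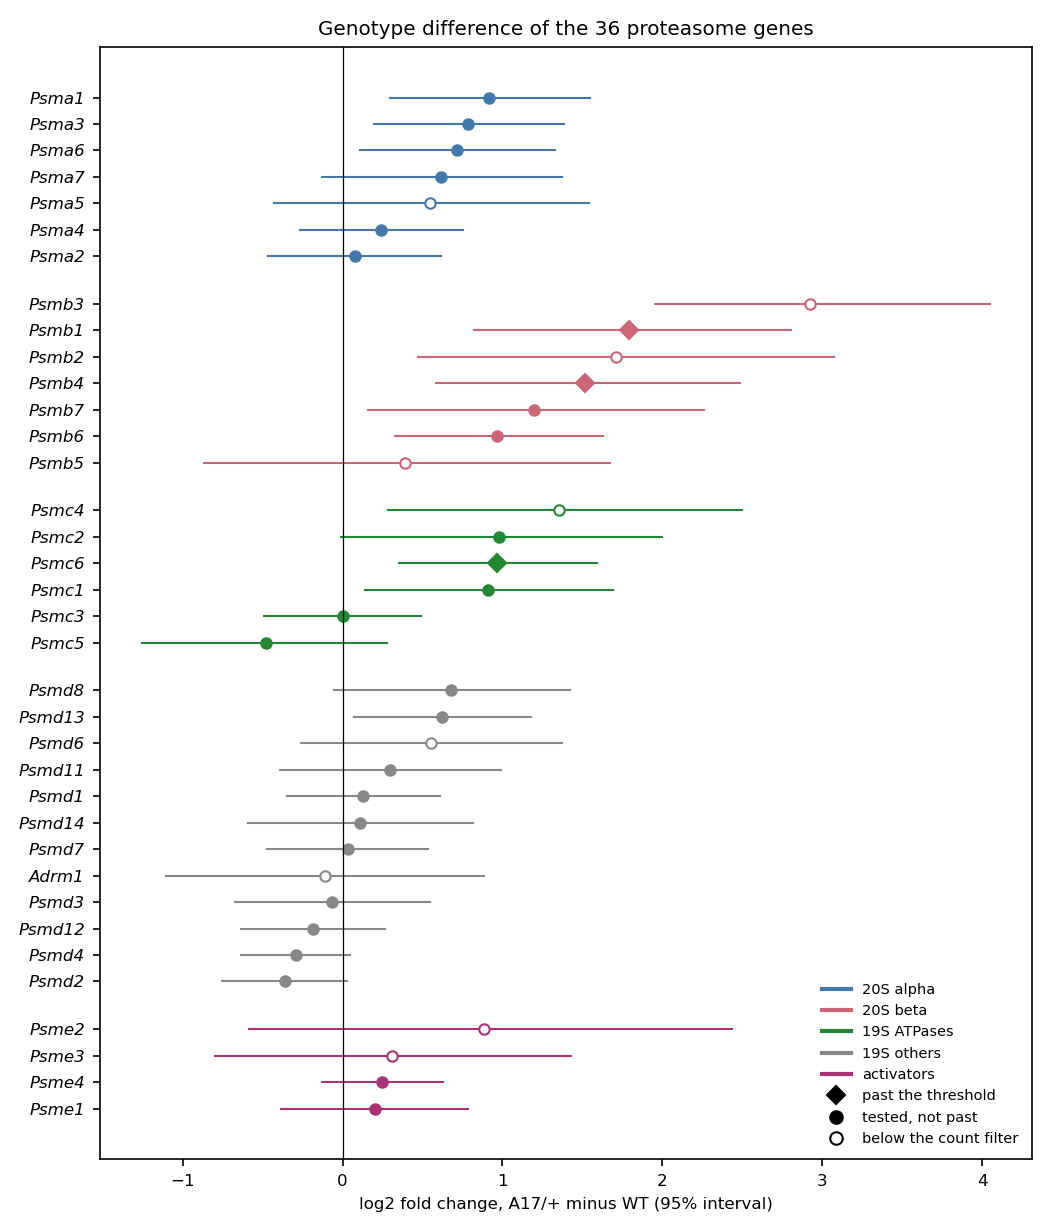
Log2 fold change (x axis, A17/+ minus WT, with 95% interval) of the 36 proteasome genes, grouped by role; diamonds passed the threshold, filled circles were tested and did not, and open circles lay below the filter and come from the fit without it. The beta subunits run from 0.39 to 2.92, and the other 19S subunits lie on both sides of 0.

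Across the whole table, log2 fold changes were larger for shorter transcripts, and the class medians of the 36 members fell in the same order. Over all 5061 tested genes with a length, the Spearman correlation of length with log2 fold change was -0.26, a description across genes that share libraries, and over the 36 members without a filter it was -0.39. The median log2 fold change of all tested genes was 1.07 under 1000 nt, 0.46 from 1000 to 1500 nt, 0.10 from 1500 to 2500 nt and -0.05 from 2500 nt, and that of the tested members in these classes was 0.79 (n = 2), 0.48 (n = 8), 0.62 (n = 11) and 0.19 (n = 6). Without a filter, the medians of all 36 members were 0.89 (n = 6), 0.55 (n = 11), 0.31 (n = 12) and 0.20 (n = 7), beside 1.08, 0.59, 0.28 and 0.00 for all genes. In these classes 36.5%, 25.1%, 9.5% and 2.5% of all genes tested were called higher. Among the tested members 0 of 2, 1 of 8, 2 of 11 and 0 of 6 were called higher. Psmb1, Psmb4, Psmb7 and Psmc2 reached the filter in only 1 WT library. The beta subunits have the shortest transcripts, with a median of 899 nt, against 1201 nt for the alpha subunits, 1613.5 nt for the ATPases, 1742.5 nt for the other 19S subunits and 1888 nt for the activators. With the length trend removed from each library, the log2 fold change of Psmb1 (1758 nt) was 1.48 and it stayed past the threshold (edgeR adjusted p = 0.0382). That of Psmb4 (1183 nt) was 0.90 (adjusted p = 0.168), Psmc6 0.81 (adjusted p = 0.0763), Psmb7 0.55, Psma1 0.33, Psma6 0.06, Psmb6 0.02 and Psma7 -0.23. In the fit without a filter the trend was fitted anew over all genes with a count, most of them below the filter. With that trend removed, Psmb3 (766 nt) went from 2.92 to 2.72 (edgeR adjusted p = 2e-05). The median of the beta subunits went from 1.45 to 1.28, and that of the other 19S subunits was -0.08. Psmb6 (798 nt), of like length, went from 0.97 to 0.02 in the filtered fit. These corrections are not alike, so the values without a filter cannot show how much of the beta difference goes with length.

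**Figure D4:**
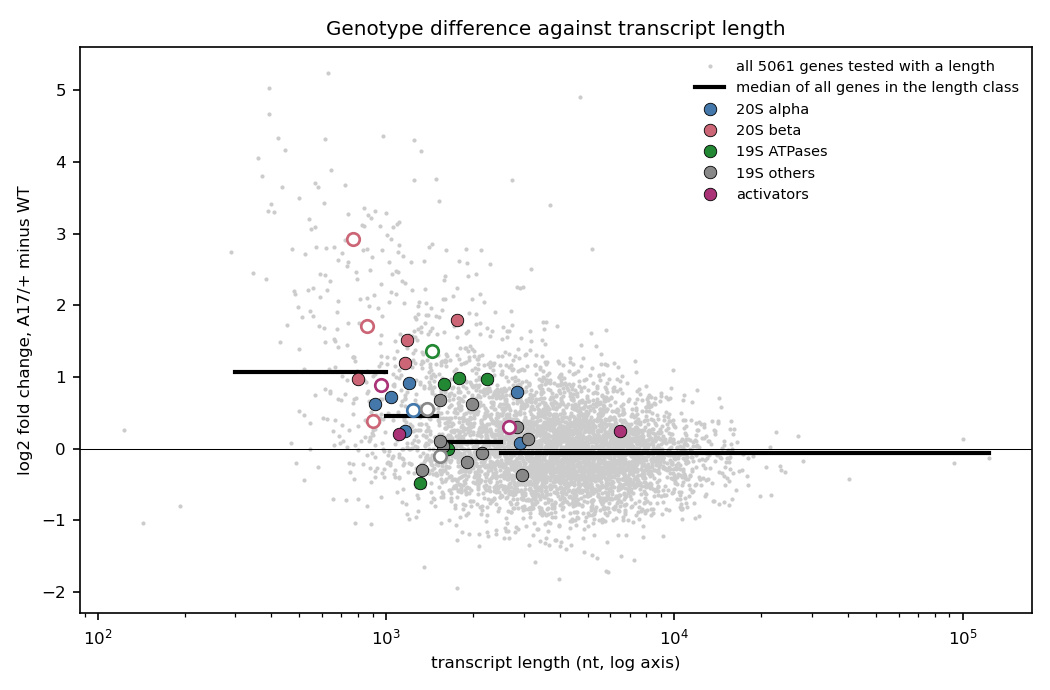
Log2 fold change (y axis, A17/+ minus WT) against transcript length (x axis, nt, log scale) for all tested genes with a length (grey) and the 36 proteasome genes (coloured by group; open symbols lay below the filter). Black bars give the median of all tested genes in 4 length classes, 1.07, 0.46, 0.10 and -0.05, and the beta subunits sit among the short transcripts.

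Of 48 further genes of the pathway in 6 lists, 47 were in the table and 23 were tested. Ubb, Txnl1 and Zfand5 were higher and Faf2 was lower, beside 6.34% and 2.61% of all genes tested. Because Txnl1 and Keap1 reached the filter in only 1 WT library, the share called higher cannot be set against the background as support. Ubb, a gene for polyubiquitin, measured 69.1, 64.6, 64.3 and 48.8 CPM in WT and 89.2, 257, 192 and 228 CPM in A17/+. Every A17/+ library exceeded every WT library, with A17/+ 1 the lowest, and the fold was 3.02 (log2 fold change 1.60 ± 0.30 SE, edgeR adjusted p = 0.00486). It stayed past the threshold in all 22 alternatives run, with log2 fold changes of 1.14 to 1.90. A pseudogene, Gm1821, shares 67.0% of the 3'-end sequence of Ubb and had 6 counts over all libraries.

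Txnl1, a thioredoxin-like protein bound to the 19S cap, measured 64.6, 19.4, 16.9 and 10.8 CPM in WT and 71.3, 84.7, 76.3 and 77.0 CPM in A17/+. WT 1 stood near the A17/+ libraries and far above the other 3 WT libraries, and it was the 1 WT library that reached the filter (log2 fold change 1.26 ± 0.38 SE, edgeR adjusted p = 0.0471). The annotated exons of Txnl1 overlap those of Wdr7 on the opposite strand by 117 nt. Wdr7 had 148 counts over all libraries, and the strand setting of the counting is not given. Zfand5, a zinc finger protein that binds ubiquitin and the proteasome and is known from muscle atrophy, measured 103, 71.1, 60.9 and 27.1 CPM in WT and 95.9, 169, 167 and 154 CPM in A17/+. WT 1 lay above A17/+ 1 (log2 fold change 1.07 ± 0.30 SE, edgeR adjusted p = 0.0339). Faf2, which recruits the segregase Vcp at the endoplasmic reticulum, measured 209, 268, 247 and 298 CPM in WT and 169, 136, 186 and 143 CPM in A17/+, with no overlap (log2 fold change -0.68 ± 0.19 SE, edgeR adjusted p = 0.0381). The calls of Txnl1, Zfand5 and Faf2 were each lost without WT 2, WT 3, WT 4, A17/+ 2, A17/+ 3 or A17/+ 4, at adjusted p of 0.053 to 0.152.

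The assembly factors of the core were all below the filter. Pomp, which guides maturation of the beta rings, had 0, 3, 1 and 1 counts in WT and 3, 16, 10 and 8 counts in A17/+. A17/+ 1 lay within the WT range in CPM and the other 3 above it. In the fit without a count filter the log2 fold change of Pomp was 2.44 ± 0.68 (SE, edgeR adjusted p = 0.00721), and it lost the threshold without WT 1 (1.81, adjusted p = 0.104) and without A17/+ 2 (2.03, adjusted p = 0.107). Psmg4, an assembly chaperone, had 3, 0, 2 and 0 counts in WT and 5, 9, 4 and 4 in A17/+ (log2 fold change 1.73 ± 0.78 SE, edgeR adjusted p = 0.232). The interferon-inducible catalytic subunits Psmb8, Psmb9 and Psmb10, which replace the constitutive ones in the immunoproteasome, together had 0 to 2 counts per library in WT and 3 to 9 in A17/+. The constitutive catalytic subunits had 10 to 31 and 27 to 60 counts. Among the leukocyte markers given above, the class II gene H2-Ab1 had 3 to 14 counts in WT and 17 to 29 in A17/+. It was the 1 of 4 tested that was called higher, beside 6.34% of all genes tested. The part of these markers in the counts of the inducible subunits was not tested.

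Nfe2l1, the transcription factor known to raise proteasome genes when proteasome activity falls, measured 368, 381, 288 and 293 CPM in WT and 406, 359, 396 and 362 CPM in A17/+. The groups overlapped (log2 fold change 0.19 ± 0.16 SE, 95% interval -0.15 to 0.53, edgeR adjusted p = 0.508). These are RNA levels, and the protein and activity of Nfe2l1 were not measured. None of the 7 tested genes of transcriptional control passed the threshold. The 2 with the smallest p were Bach1, a repressor at antioxidant response elements, at 63.2 ± 8.47 CPM in WT and 40.3 ± 4.30 CPM in A17/+ (log2 fold change -0.63 ± 0.26 SE, edgeR adjusted p = 0.131), and Keap1, the adaptor for degradation of Nfe2l2, at 9.70 to 48.8 CPM in WT and 33.4 to 50.8 CPM in A17/+ (log2 fold change 0.95 ± 0.40 SE, edgeR adjusted p = 0.137).

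**Figure D5:**
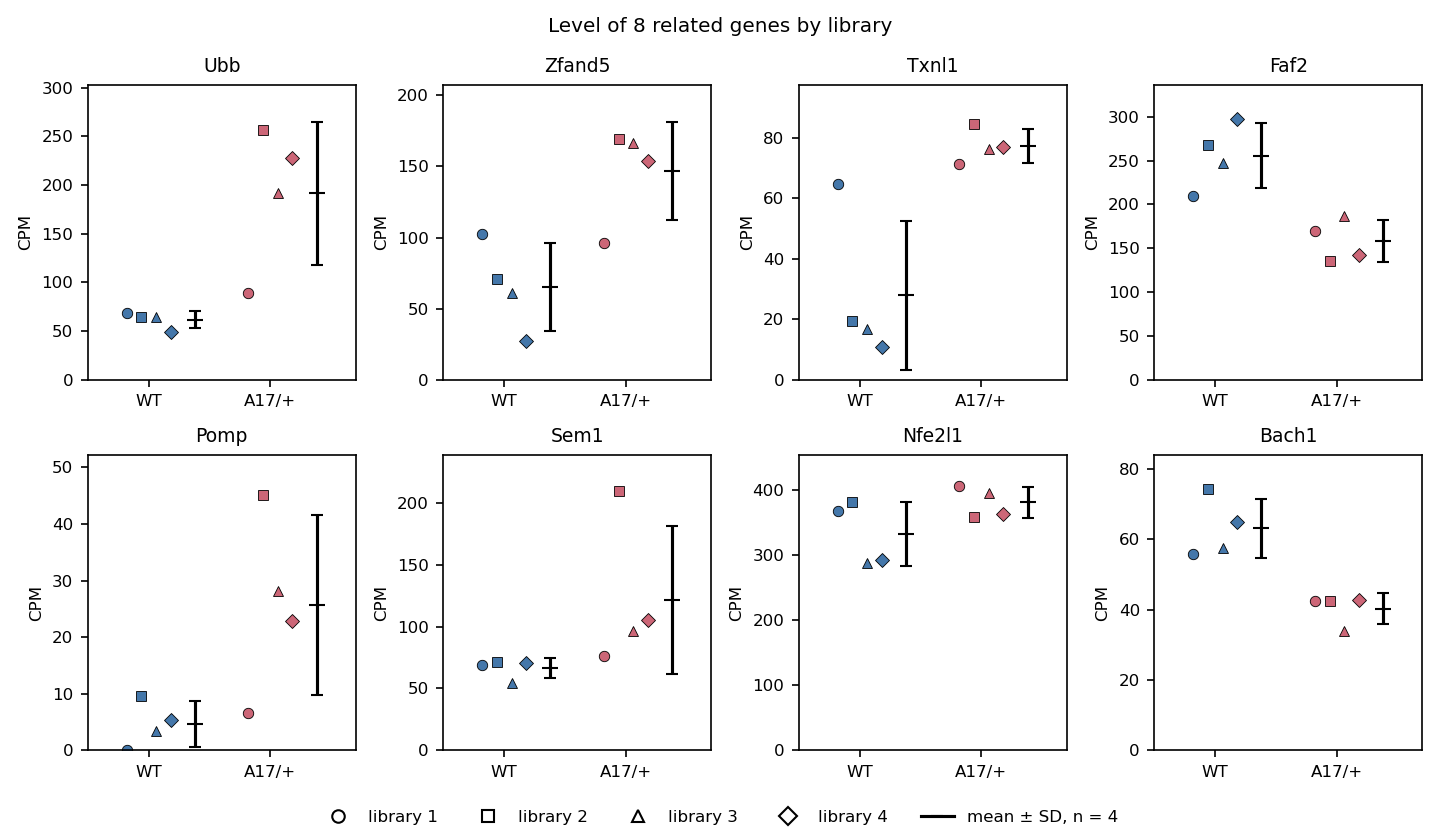
Level (y axis, CPM, from 0) of 8 genes of the ubiquitin-proteasome pathway in each WT and A17/+ library; symbols mark the library number and bars the mean ± SD. Ubb lies at 48.8 to 69.1 CPM in WT and at 89.2 to 257 CPM in A17/+, while Nfe2l1 overlaps.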

How the data were processed

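RNA was measured in 8 tongue libraries, 4 per genotype. Per the submitters' processing notes, the tools were STAR 2.7.5a, HTSeq, UMI-tools 1.1.1 and cutadapt 2.10, and the build was mm10; settings, strand and annotation release are not given in the sources used here. The authors deposited raw counts per Ensembl gene and, in 1 file per library, log2 values for 10709 genes, used here only in an alternative. Symbols, positions and lengths came from GENCODE release M21 (19677 of 19857 identifiers matched), and promoters from RefSeq.

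Counts were filtered with filterByExpr (minimum count 10, minimum total 15), leaving 5066 genes. TMM scaling and a robust quasi-likelihood fit by genotype were run in edgeR 4.0.16 (R 4.3.3), with Benjamini-Hochberg adjustment over every gene tested. Log2 fold changes are A17/+ minus WT. CPM are per 1000000 counts of the tested genes, with TMM factors. Members below the filter have values from the same fit without a filter. Single values per library were compared over the 70 assignments of libraries. The members and lists were chosen with earlier results of these data known. Named with all values are the members past the threshold, up to 4 per group with the smallest p, and the catalytic subunits. In each further list they are the genes past the threshold, or up to 2 with the smallest p. Psmb2, Psmb3, Psmc4 and Sem1 were added after their values were seen. 1 gene of the further lists is not reported here. The labels call the samples separate mice. Replicate numbers were not used as pairs. On simulated counts with 100 genes changed at each size among 5066, the test recovered 45% of 2-fold and 95% of 4-fold changes, and 4.11% of calls were false. The simulated counts were independent, balanced in direction and without a length trend, so these rates may not hold for the real libraries. Alternatives covered filters, scaling, DESeq2 1.42.0, limma 3.58.1 (voom and trend), transcript length, depth, mitochondrial transcripts and left-out libraries.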

Additional observations from a re-analysis of the deposited data

Results flagged for a closer look

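In 10 of 74 groups of 4 libraries checked, 1 library stood apart from the other 3 by more than Dixon's criterion at the 95% level allows. For a single group, chance gives about 1 in 20. The 74 groups share the same libraries and include genes chosen by p or after their values were seen. The share flagged therefore cannot be read against that rate. WT 1 was the high one for Psmb7 (35.7 CPM against 9.70 to 10.8), Psmc6 (51.3 against 27.1 to 30.5), Txnl1 (64.6 against 10.8 to 19.4) and the summed activators (577 against 443 to 465). A17/+ 1 was the low one for Psmc6 (51.3 against 77.0 to 79.1). WT 3 was high for Psma7 (37.2 against 25.9 to 27.1) and low for Sem1, a small 19S subunit (54.1 against 69.1 to 71.1). A17/+ 2 was low for Psmd2 (195 against 245 to 254) and high for Psmg4 (25.4 against 11.1 to 11.4), and A17/+ 3 was low for Bach1 (33.9 against 42.4 to 42.8). No cause was tested.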

How the results depend on the processing

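The number of members called higher was 3 with all libraries, 0 with limma-voom, 1 with the length trend removed, 1 with counts thinned to the smallest library, 10 without both libraries numbered 1, and 0 to 9 when 1 library was left out (8 if that was WT 1, 9 if A17/+ 1, 0 if A17/+ 4, and 1 for each of the others). Over the 36 members without a filter it was 3, 7 without both libraries numbered 1, and 1 to 6 with 1 library left out. No member was called lower except 1, Psmd4, with the length trend removed. With library sizes taken over all genes, an alternative chosen after seeing the data, 4 members were called higher, Psmb6 being added. The number of related genes called higher was 3, and it was 1 with library totals alone, 1 with limma-voom, 1 with thinned counts, 6 without both libraries numbered 1, and 1 to 5 with 1 library left out; the number called lower was 1, and it was 0 with limma-voom, 0 with thinned counts and 0 to 1 with 1 library left out. Over all genes 321 were higher and 132 lower; without a filter 615 and 238, with limma-voom 152 and 81, without both libraries numbered 1 695 and 330, with limma-trend on the deposited log2 values 569 and 239, and with 1 library left out 172 to 586 and 38 to 383. The number lower was 289 with library totals alone, 223 with the length trend removed and 86 with thinned counts. Psma7 reversed to -0.23 and Psme1 to -0.43 with the length trend removed, Psme1 to -0.034 without WT 4 (-0.034 to 0.40 with 1 library left out), and Psmb5 to -0.49 with limma-voom, to -0.67 without A17/+ 2 (-0.67 to 0.78 with 1 left out) and to -0.015 with limma-trend; none of these passed the threshold. The cause was not tested, beyond fewer libraries or counts where these were left out.

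The labels do not tie equal replicate numbers together, same-numbered libraries correlated in their deviations at 0.00, 0.07, -0.10 and -0.16, and not every library correlated best with its own number. The replicate block gave 311 genes higher and 99 lower, 1 member higher (Psmb1), 2 related genes higher and 0 lower.

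A library of 205696 counts sets the lowest depth, at which 1 count is 5.42 CPM, so changes of genes with a few counts, such as Psmb5, Psme2 or Psmb8, were not detectable at this depth unless large.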
